A study of Mus musculus with 15 samples.

Results

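Dorsal-ventral polarity is the difference in expression between the ventral part (AoV) and the dorsal part (AoD) of the embryonic aorta with the tissue around it. Here it was followed from E9.5 to E10.5, to ask which genes gained, lost or reversed it. The comparison used 12 of the 15 samples of the series, 3 each of AoD and AoV at E9.5 (E9 AoD, E9 AoV) and at E10.5 (E10 AoD, E10 AoV). All came from C57BL/6 mouse embryos, for which the labels give a developmental stage and a tissue but no allele and no agent, and each library was made from tissue pooled from many embryos. The other 3 samples are urogenital ridges (UGR) cut away beside the aorta at E10.5. No E9.5 group of that name is labelled, so whether the E9.5 pieces held the forerunner of that tissue cannot be told apart from a change in the aorta itself. Levels are in RPM, a gene's reads scaled to the library's total over genes, and are not adjusted for gene length.

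Of 28876 genes in the table, 18402 reached 0.5 RPM in at least 1 of the 12 libraries and were tested. For each gene, what AoD gained or lost between the stages was subtracted from what AoV did, on log2(RPM + 0.1). This interaction is positive where polarity moved towards ventral and negative where it moved towards dorsal. A gene was called where the Benjamini-Hochberg adjusted p over all tested genes (limma) was below 0.05 and the log2 difference was at least 1, a 2-fold difference. Called genes were then sorted by whether polarity itself was called at E9.5 only (lost), at E10.5 only (gained), at both stages with opposite signs (reversed) or at both with the same sign (deepened or reduced). A p-value here measures the spread between pools, and in bulk tissue fewer cells of a type and less RNA per cell cannot be told apart.

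The dorsal aorta lies between the notochord and neural tube on its dorsal side and the gut and its mesentery on its ventral side, with the coelomic epithelium and urogenital ridges beside it. The notochord and the gut endoderm are both known sources of Hedgehog ligands, which bind Patched receptors and release the transducer Smoothened, so that GLI factors switch on targets such as Ptch1, Hhip and Gli1. In this region, called the aorta-gonad-mesonephros (AGM), hematopoietic stem cells first form, mostly at the ventral wall of the aorta.

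Depth, estimated from the RPM that a single read is worth, was 37.2 to 46.7 megareads per library, and 3 reads were worth 0.0642 to 0.0807 RPM. Endothelial markers, which check the labelled tissue, summed over 19 genes to 554.8 to 738 RPM in E9 AoD and to between 1046 and 1171 RPM in the libraries of the other 3 groups. Markers of neighbouring tissues were present too, and moved with position and stage. Neural tube and neuron markers (27 genes) summed to 604.9, 519 and 919 RPM in E9 AoD and to 280 to 371 RPM in E10 AoD, but to at most 73.8 RPM in the ventral libraries. Plasma protein genes of liver and yolk sac (21 genes) summed to 883, 1146 and 705 RPM in E9 AoV and to at most 49.3 RPM in the other aorta libraries. The share of these tissues in the results below was not tested.

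The interaction was called for 1989 genes, 10.8% of those tested. Polarity moved towards ventral in 729 (3.96%) and towards dorsal in 1260 (6.85%). At E9.5, 1532 genes (8.33%) were higher in AoV and 635 (3.45%) higher in AoD, and at E10.5 the counts were 1061 (5.77%) and 792 (4.30%). Of these, 853 genes were polar at both stages with the same sign, 512 ventral and 341 dorsal. Polarity was gained by 597 genes, 339 of them ventral and 258 dorsal, and lost by 770, 616 ventral and 154 dorsal. It was reversed in 89, of which 69 went from ventral to dorsal and 20 from dorsal to ventral. A further 114 genes had a deeper and 127 a reduced polarity of unchanged sign, and 292 had a called interaction with no polarity past the threshold at either stage. The class of a gene depends on where the threshold lies. Among the 597 gained genes, 80 already had a polarity of 0.8 to 1 in size at E9.5 and 393 one under 0.5. Among the 770 lost genes, 85 were at 0.8 to 1 at E10.5, 541 were under 0.5 and 7 had a difference of 1 or more that missed the adjusted p.

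**Figure D1:**
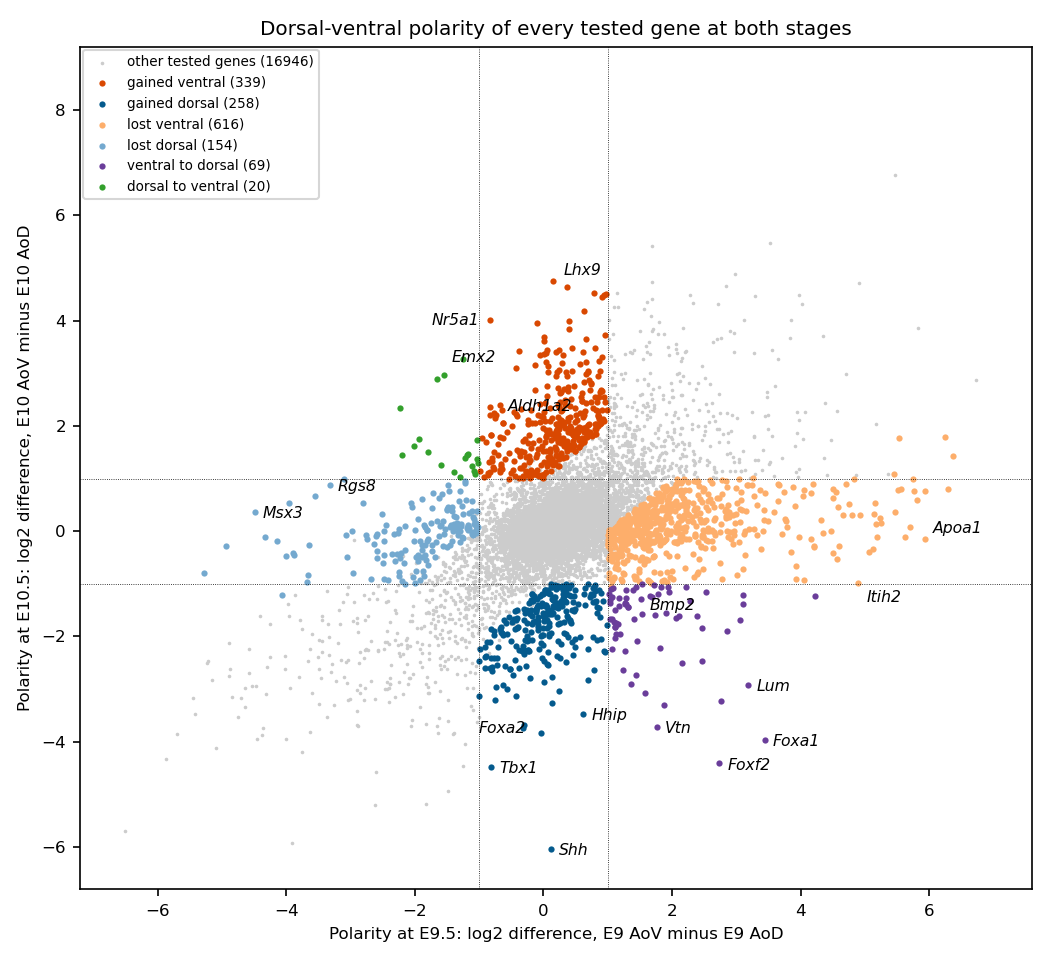
Each point is 1 tested gene, placed by its polarity at E9.5 (x axis) and at E10.5 (y axis), both as the log2 difference AoV minus AoD, with the threshold of 1 dotted. The 597 gained genes stand above and below the centre, the 770 lost genes to its right and left, and the 89 reversed genes in the upper left and lower right corners, where Foxa1 and Foxf2 lie farthest out.

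The stage at which a part of the aorta changed was tested as well, and 2025 genes (11.0%) changed between stages in AoV and 2321 (12.6%) in AoD. In 198 of the 339 genes that gained ventral polarity, AoV rose and AoD was not called. In 139 of the 258 that gained dorsal polarity, AoD rose and AoV was not called. Ventral polarity was lost in several ways. AoV alone fell in 263 of the 616 genes, and AoD alone rose in 170, so that the dorsal part came up to the ventral level. Of the 154 genes that lost dorsal polarity, 81 fell in AoD alone. In 32 of the 69 genes that turned from ventral to dorsal, AoV fell and AoD rose together.

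**Figure D2:**
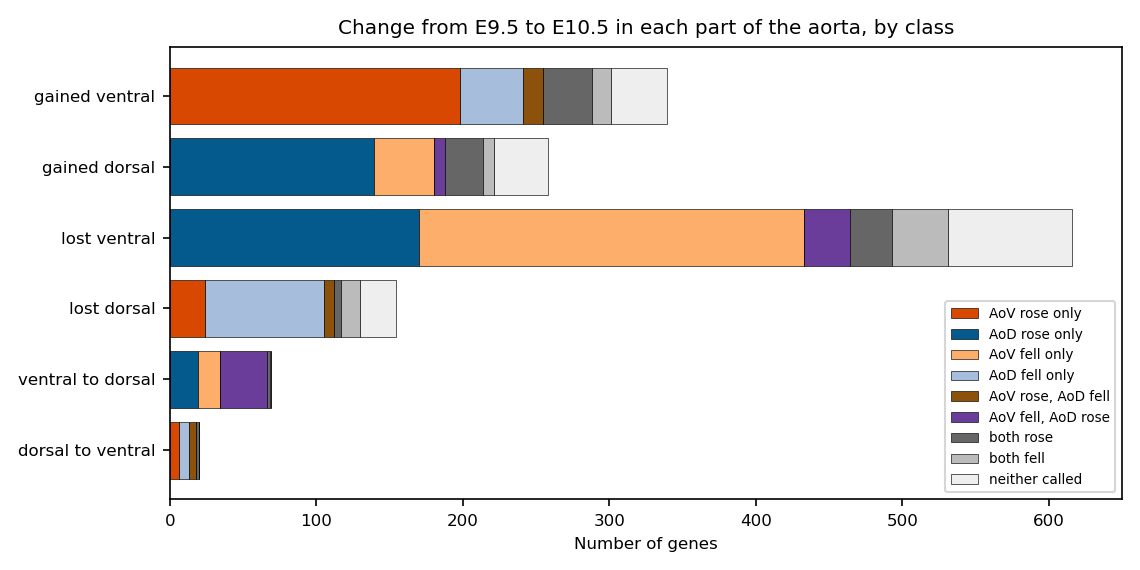
Bars count the genes of each class (y axis), divided by whether the level changed from E9.5 to E10.5 in AoV, in AoD, in both or in neither (x axis, number of genes). A rise in AoV alone makes up 198 of 339 gained ventral genes, and the lost ventral class divides mainly into 263 genes that fell in AoV and 170 that rose in AoD.

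The reversals from ventral to dorsal were led by forkhead factors and matrix genes. Foxa1, a pioneer factor of endoderm, had the largest interaction of all tested genes. It was at 5.11, 4.78 and 3.96 RPM in E9 AoD and 44.3, 62.9 and 47.4 RPM in E9 AoV, then at 12.7, 11.4 and 9.09 RPM in E10 AoD and 0.467, 0.767 and 0.629 RPM in E10 AoV. The libraries of AoV were all above those of AoD at E9.5 and all below them at E10.5, a polarity of 3.44 and then of -3.96 on the log2 scale (interaction -7.40, SE 0.255, limma adjusted p = 3.93e-09). Foxf2, a factor of gut and lung mesenchyme, was at 8.54, 8.44 and 6.05 RPM in E9 AoD, 43.4, 57.2 and 52.9 RPM in E9 AoV, then 84.4, 103 and 78.6 RPM in E10 AoD and 4.23, 3.93 and 3.98 RPM in E10 AoV. Both parts crossed over, the ventral one falling and the dorsal one rising (interaction -7.14, SE 0.199, limma adjusted p = 1.45e-09). Lum, which encodes the collagen-binding proteoglycan lumican, went from 176 ± 13.6 RPM (SD, n = 3) at E9.5 to 14.7 ± 1.79 RPM at E10.5 in AoV, and from 19.5 ± 4.55 to 111 ± 2.65 RPM in AoD. Vtn, for the adhesion protein vitronectin, fell in AoV from 26.3 ± 3.81 to 0.908 ± 0.0986 RPM, while AoD stood at 7.76 ± 1.76 and 13.2 ± 2.16 RPM, a change below the threshold there.

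Foxa1 lies on the minus strand of chromosome 12, 58641618 to 58647108 (NCBIM37), and the bases before its start are shown because it had the largest reversal and a promoter with one of the motifs searched. A GLI motif, GACCACCC, and a forkhead motif, TGTTTAC, were looked for on both strands of RefSeq promoters (250 bases before to 50 after a start, GRCm38.p6). Of 15 Hedgehog, Foxa and Foxf genes with a called interaction, 10 had 12 promoters in that table. None held the GLI motif, which 0.807% of all 32851 promoters hold. The forkhead motif was in that of Foxa1 and in 3.65% of all promoters. The 250 bases upstream of Foxa1 (GRCm38.p6, chr12:57546112-57546361, minus strand, 5′ to 3′) have the match in capitals, as the reverse complement GTAAACA, 141 to 135 bases before the start.
Foxa1: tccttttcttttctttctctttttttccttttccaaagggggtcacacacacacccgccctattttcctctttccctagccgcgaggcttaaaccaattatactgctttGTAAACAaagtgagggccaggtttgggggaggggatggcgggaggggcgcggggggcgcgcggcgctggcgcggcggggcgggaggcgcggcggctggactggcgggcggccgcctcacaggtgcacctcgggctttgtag
A match of letters is a description and not a binding site.

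Other reversals towards dorsal were found among signalling genes. Bmp2, a ligand of the BMP family, was at 6.54, 6.96 and 5.22 RPM in E9 AoD and 18.5, 16.8 and 18.9 RPM in E9 AoV, and then at 28.6, 24.3 and 31 RPM in E10 AoD and 10.7, 8.59 and 8.78 RPM in E10 AoV. AoD rose past AoV, which itself did not pass the threshold (log2 change -0.95), and the interaction was -3.10 (SE 0.174, limma adjusted p = 2.46e-07). Sfrp5, a secreted Wnt inhibitor, fell in AoV from 16.1 ± 1.02 to 0.41 ± 0.118 RPM and stood at 1.79 ± 0.256 and 1.21 ± 0.108 RPM in AoD. Both E10.5 levels of Sfrp5 were low, so the size of its dorsal polarity there depends on the 0.1 RPM added before taking logs. Rspo2, which strengthens Wnt signals, fell in AoV from 8.43 ± 0.284 to 0.743 ± 0.167 RPM and stood at 3.26 ± 0.626 and 6.15 ± 0.953 RPM in AoD. Col6a3, a chain of microfibrillar collagen, exchanged its levels, from 4.75 ± 1.42 to 16.3 ± 3.64 RPM in AoD and from 19.6 ± 2.35 to 5.07 ± 0.786 RPM in AoV.

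The 20 reversals from dorsal to ventral held genes of the urogenital system. Emx2, a homeobox factor needed for urogenital development, was at 13.3, 19.7 and 9.06 RPM in E9 AoD and 5.45, 3.62 and 4.59 RPM in E9 AoV, and then at 3.97, 7.98 and 6.56 RPM in E10 AoD and 47.7, 52.2 and 41.9 RPM in E10 AoV. Here the ventral part rose by 3.36 and the dorsal part fell by 1.16 on the log2 scale, and the E10.5 libraries of AoV lay far above those of AoD (interaction 4.52, SE 0.391, limma adjusted p = 5.4e-06).

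The transcript listed as AC098733.1 lies on the opposite strand of chromosome 19 (59499594 to 59533125, NCBIM37), 55 bases from Emx2 (59533180 to 59539847), and the annotation names it Emx2os. It had the same course, at 2.96 ± 1.04 and 0.907 ± 0.413 RPM in E9 AoD and E9 AoV and 2.22 ± 0.945 and 16.2 ± 0.815 RPM in E10 AoD and E10 AoV. E330013P04Rik, an uncharacterised gene farther along chromosome 19, went from 0.758 ± 0.101 to 15.8 ± 1.3 RPM in AoV with 2.03 ± 0.713 and 1.61 ± 0.583 RPM in AoD. Pax2 and Pax8, paired box factors of the nephric lineage, had interactions of 2.63 and 2.62. Pax8 stood at 8.85, 14.9 and 5.71 RPM in E9 AoD against 4.78, 3.29 and 3.66 RPM in E9 AoV, and at 2.28, 3.56 and 2.86 RPM in E10 AoD against 8.84, 7.1 and 7.24 RPM in E10 AoV. Among the rest, picked after their values were seen, Mc2r, the adrenal receptor for corticotropin, rose in AoV from 1.13 ± 0.163 to 12.3 ± 1.26 RPM, although its E9.5 libraries overlapped between AoD and AoV. In E10 UGR Emx2 stood at 110 ± 5.86 RPM and Pax8 at 53.5 ± 3.14 RPM.

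**Figure D3:**
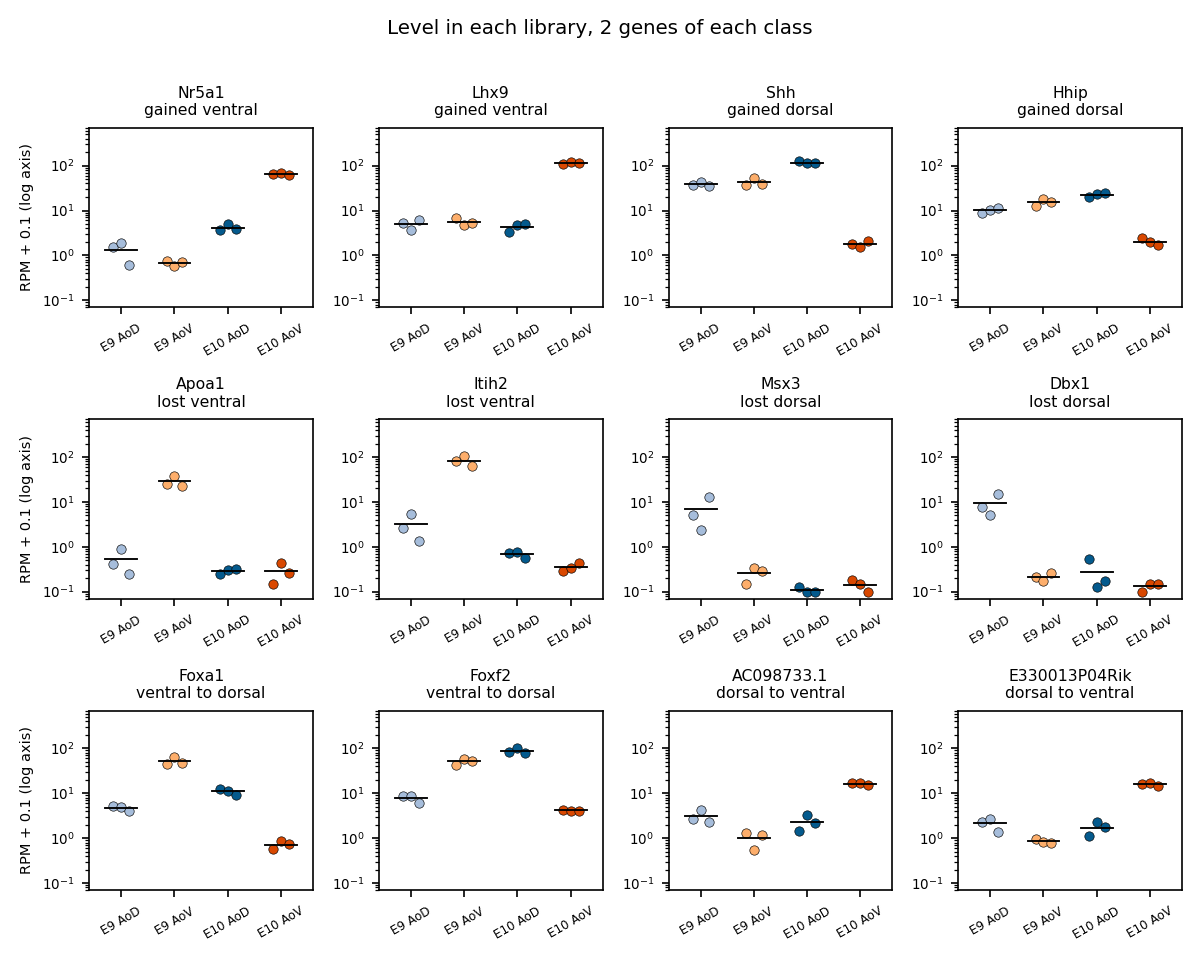
Levels of 2 leading genes of each class, in each of the 12 libraries (points, RPM + 0.1 on a log axis, with the group mean plus 0.1 as a line). Foxa1 and Foxf2 change places between the E9.5 and the E10.5 pairs of groups, Shh and Lhx9 are level at E9.5 and apart at E10.5, and Apoa1 is high in the E9 AoV libraries alone.

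Genes that gained ventral polarity were led by factors of the gonad and adrenal primordium. Nr5a1 (steroidogenic factor 1) was at 1.43, 1.75 and 0.513 RPM in E9 AoD, 0.638, 0.487 and 0.618 RPM in E9 AoV, then 3.59, 4.84 and 3.69 RPM in E10 AoD and 66.3, 69 and 62.2 RPM in E10 AoV. It rose in both parts, but by 6.60 on the log2 scale in AoV and 1.77 in AoD (interaction 4.83, SE 0.435, limma adjusted p = 7.11e-06). Lhx9, a LIM homeobox factor of the gonadal ridge, was between 3.3 and 6.56 RPM in all libraries of the first 3 groups and at 111, 121 and 116 RPM in E10 AoV (interaction 4.59, SE 0.279, limma adjusted p = 3.92e-07). Wt1, the Wilms tumour factor of coelomic epithelium, stood at 39.5 ± 18.1, 39.3 ± 0.416 and 45.2 ± 8.1 RPM in E9 AoD, E9 AoV and E10 AoD and at 226 ± 10.8 RPM in E10 AoV. Of 18 tested genes on a list of coelomic epithelium and adrenogonadal markers, 10 moved towards ventral and 0 towards dorsal, where 3.96% and 6.85% of all tested genes did. Besides those 3, Nr2f2 and Cyp11a1 gained ventral polarity, Gata4, Tcf21 and Upk3b deepened it, and Emx2 and Nr0b1 reversed. The list's median polarity was 0.13 at E9.5 and 2.42 at E10.5, where over all tested genes the medians were 0.02 at both stages. The summed level of all 19 listed genes was 411.5 to 457.7 RPM in E10 AoD, 1658 to 1709 RPM in E10 AoV and 1394 to 1491 RPM in E10 UGR.

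Not every gained ventral gene was high in the urogenital ridge. Cacna1e, for a voltage-gated calcium channel, went from 0.707, 0.765 and 0.879 RPM at E9.5 to 13.2, 14.3 and 9.41 RPM at E10.5 in AoV, with at most 1.16 RPM in any AoD library and 1.59 ± 0.24 RPM in E10 UGR. Dpp10, for a protein that modulates potassium channels, reached 6.17, 5.42 and 6.47 RPM in E10 AoV from at most 0.301 RPM in the other aorta libraries, and was at 0.84 ± 0.173 RPM in E10 UGR. Dpp10 thus passed the filter of 0.5 RPM through E10 AoV alone, so the filter set its direction. Of 15 tested germ cell genes, 11 moved towards ventral and 0 towards dorsal, 7 gaining ventral polarity and 4 deepening it. Over all tested genes the shares were 3.96% and 6.85%. Any member that reached 0.5 RPM in E10 AoV alone had its direction set by the filter, so the count is a description. Utf1, a chromatin factor of pluripotent cells, rose in AoV from 0.588 ± 0.195 to 5.13 ± 0.336 RPM, against 0.29 ± 0.028 and 0.13 ± 0.0562 RPM in AoD. Pou5f1, the core pluripotency factor, was already higher ventrally at E9.5 and deepened from 1.69 to 5.42 on the log2 scale. The summed level of the 16 germ cell genes in the table nevertheless fell in both parts. It went from 118.5 to 149.9 RPM at E9.5 to 76.4 to 78.6 RPM at E10.5 in AoV. In AoD it went from 102.7 to 118.9 RPM to 47.1 to 50.4 RPM.

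Dorsal polarity was gained by Shh and by known Hedgehog targets. Shh, the ligand Sonic hedgehog (chromosome 5, 28783355 to 28793641, minus strand, NCBIM37), was at 37.5, 43.8 and 34.4 RPM in E9 AoD and 36.1, 51.8 and 38.3 RPM in E9 AoV. At E10.5 it was at 124, 113 and 114 RPM in AoD and 1.67, 1.47 and 1.95 RPM in AoV. The E9.5 groups overlapped and differed by 0.11 on the log2 scale, while at E10.5 every AoD library lay above every AoV library, a polarity of -6.03 (interaction -6.15, SE 0.191, limma adjusted p = 2.74e-09). Reads of Shh cannot be told from those of 9530036O11Rik and Gm17493 where exons on the other strand overlap, since the counting is not stated to use strand, and the same holds for Gli1 with Arhgap9.

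Receptors and targets of the pathway gained dorsal polarity too. Hhip, a membrane protein that binds and traps Hedgehog ligands, was at 8.85, 9.94 and 11 RPM in E9 AoD, 12.7, 18.4 and 15.2 RPM in E9 AoV, then 20, 22.8 and 24.1 RPM in E10 AoD and 2.28, 1.92 and 1.61 RPM in E10 AoV. Its small ventral excess at E9.5 did not pass the threshold and gave way to a dorsal one (interaction -4.09, SE 0.209, limma adjusted p = 1.41e-07). Ptch1, the main receptor, fell in AoV from 323 ± 46.4 to 88 ± 6.03 RPM (SD, n = 3) and stood at 247 ± 10.1 and 352 ± 12.7 RPM in AoD. Gli1, the transcriptional activator, was at 97.1, 95.8 and 84.7 RPM in AoV at E9.5 and 46.4, 43.9 and 53.2 RPM at E10.5, against 81.5 ± 4.87 and 122 ± 14.7 RPM in AoD, and neither part passed the threshold between stages although the interaction did (-1.52).

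Not all members of the pathway moved dorsally. Ihh, another ligand, lost ventral polarity. It was at 7.43, 9.51 and 7.23 RPM in E9 AoV and at most 0.358 RPM in every other aorta library (interaction -3.70, SE 0.33, limma adjusted p = 6.45e-06). The co-receptor Gas1 gained ventral polarity, from 103 ± 3.06 to 57 ± 12.2 RPM in AoD and from 57.1 ± 8.29 to 118 ± 2.89 RPM in AoV. The co-receptor Boc and Scube2, which helps release the ligand, lost dorsal polarity. Scube2 was at 15.3, 11.7 and 33.4 RPM in E9 AoD and at most 1.46 RPM elsewhere in the aorta, and without the third E9 AoD library its interaction was 2.98 in place of 3.42. In all, 6 of 16 tested pathway genes moved towards dorsal and 4 towards ventral, against 6.85% and 3.96% of all tested genes. Ihh, counted among those that moved towards dorsal, passed the filter of 0.5 RPM through E9 AoV alone, so the filter set its direction. Smo, the transducer, had an interaction of 0.01 (limma adjusted p = 0.94).

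**Figure D4:**
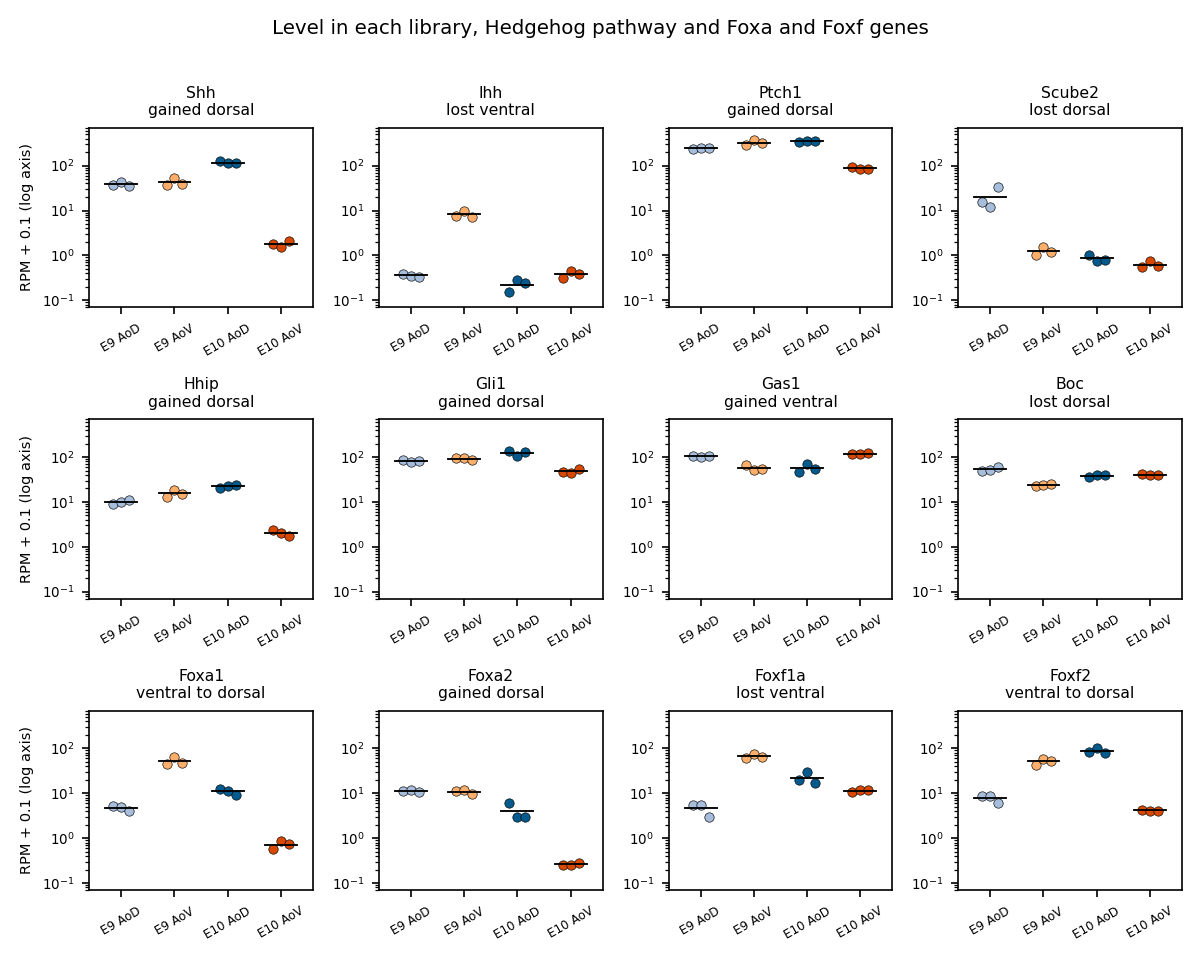
Levels of 8 Hedgehog pathway genes and 4 forkhead factors in each of the 12 libraries (points, RPM + 0.1 on a log axis, with the group mean plus 0.1 as a line). Shh, Ptch1, Hhip and Gli1 are lowest in E10 AoV, whereas Ihh is above 7 RPM in the E9 AoV libraries alone and Gas1 is near 100 RPM or above in E9 AoD and E10 AoV.

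Forkhead factors fell into several classes. Foxa2, a factor of notochord, floor plate and endoderm, was level at E9.5, at 11.1, 11.5 and 10.6 RPM in AoD and 11.4, 11.6 and 9.39 RPM in AoV. At E10.5 it was at 6.13, 2.86 and 2.87 RPM in AoD and 0.156, 0.153 and 0.186 RPM in AoV. It fell in both parts but by far more in AoV, so that dorsal polarity appeared (interaction -3.80, SE 0.324, limma adjusted p = 4.74e-06). Foxf1a, the mesenchymal relative of Foxf2, lost ventral polarity, from 67.4 ± 7.91 to 11.2 ± 0.551 RPM in AoV while AoD rose from 4.51 ± 1.46 to 21.7 ± 6.56 RPM. Foxa3 was at 3.6, 4.89 and 3.4 RPM in E9 AoV and at most 0.179 RPM elsewhere in the aorta. Foxq1 gained dorsal polarity, with 6.75 ± 1.19 RPM in E10 AoD and at most 2.16 RPM in the other aorta libraries. However, 40.5% of the 50-base windows of its coding transcripts also occur in another gene. Of 13 tested forkhead genes, 6 moved towards dorsal and 2, Foxc2 and Foxd2, towards ventral, where 6.85% and 3.96% of all tested genes did. Foxa3, counted among those that moved towards dorsal, passed the filter of 0.5 RPM through E9 AoV alone, so the filter set its direction.

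Notochord markers (7 genes, Shh and Foxa2 among them) summed to 74 to 80.7 RPM in E9 AoD and 63 to 77.6 RPM in E9 AoV. At E10.5 the sums were 153.8 to 178.5 RPM in AoD, 18 to 21.6 RPM in AoV and 10.1 to 10.6 RPM in the UGR. T (brachyury), a notochord factor that is also on the list of caudal progenitor genes, was higher dorsally at both stages and deepened. It was at 15.4 ± 1.25 and 5.64 ± 1.98 RPM in E9 AoD and E9 AoV and 33.9 ± 4.69 and 1.014 ± 0.141 RPM in E10 AoD and E10 AoV. Gut endoderm markers (20 genes) summed in AoV to 880.3 to 993.3 RPM at E9.5 and to 202.0 to 229.3 RPM at E10.5. Of the 7 notochord genes, 3 moved towards dorsal and 1, Nog, towards ventral, against 6.85% and 3.96% of all tested genes. The median interaction of the 7 was 0.12, and most of the notochord sum in E10 AoD was Shh itself. The part of these tissues in the result was not tested.

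Tbx1, a T-box factor of pharyngeal and somitic mesoderm, gained dorsal polarity through AoD alone. It was at 4.33, 3.76 and 2.46 RPM in E9 AoD, 1.98, 1.58 and 2.19 RPM in E9 AoV, then 77.3, 97.2 and 65.2 RPM in E10 AoD and 3.76, 3.58 and 3.03 RPM in E10 AoV (interaction -3.66, SE 0.283, limma adjusted p = 2.28e-06). Dbh, the enzyme that makes noradrenaline, was below 1 RPM in all E9.5 libraries and reached 114, 103 and 79.4 RPM in E10 AoD and 20.9, 15.7 and 13.5 RPM in E10 AoV. Of 16 tested neural crest and sympathoadrenal genes, 8 moved towards dorsal and 0 towards ventral, against 6.85% and 3.96% of all tested genes. Agtr2, an angiotensin II receptor, had a similar course, at or below 0.342 RPM at E9.5 and at 83.5 ± 15.3 and 14.2 ± 3.66 RPM in E10 AoD and E10 AoV.

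Enzymes and receptors of retinoic acid signalling gained opposite polarities. Aldh1a2, the main retinoic acid synthase of the early embryo, was at 139, 167 and 150 RPM in E9 AoD, 90.2, 92.9 and 101 RPM in E9 AoV, then 34.7, 51.4 and 44.3 RPM in E10 AoD and 234, 220 and 228 RPM in E10 AoV. The dorsal libraries were higher at E9.5 by less than the threshold and much lower at E10.5 (interaction 3.08, SE 0.16, limma adjusted p = 1.43e-07). Aldh1a3, which catalyses the same step, instead rose in AoD from 3.29 ± 1.34 to 19.1 ± 1.55 RPM and stood at 2.56 ± 0.627 and 1.41 ± 0.289 RPM in AoV. The receptor Rarg fell in AoV from 47.7 ± 3.67 to 20.5 ± 0.907 RPM and gained dorsal polarity.

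Among BMP genes, secreted modulators were found in most of the classes. Of 16 tested BMP antagonists and modulators, 6 moved towards ventral and 2 towards dorsal, against 3.96% and 6.85% of all tested genes. Bmper, a secreted modulator of BMP ligands, was at 11.6, 14.9 and 7.14 RPM in E9 AoD, 6.86, 8.12 and 7.68 RPM in E9 AoV, then 41, 42 and 45.1 RPM in E10 AoD and 90.1, 90.5 and 93.5 RPM in E10 AoV. It rose in both parts, and the groups overlapped at E9.5 but not at E10.5 (interaction 1.60, SE 0.265, limma adjusted p = 0.000692). Nog (noggin) went from 4.38 ± 0.505 to 10.4 ± 1.14 RPM in AoV and stood at 5.1 ± 0.653 and 5.11 ± 0.315 RPM in AoD. Grem1, another antagonist, turned from dorsal to ventral, and Fst (follistatin) lost its dorsal polarity. Bmp4, a BMP ligand picked after its values were seen, was higher ventrally at both stages, with polarities of 1.35 and 1.68 and no called interaction (0.33, limma adjusted p = 0.309). The interaction was called for 0 of 10 tested BMP-SMAD targets, too few genes to set this apart from the 10.8% called over all tested genes. Of these 10, 4 were called higher in AoV at E9.5 and 4 at E10.5, against 8.33% and 5.77% of all tested genes.

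Among Wnt ligands, Wnt4 gained ventral polarity (9.03 ± 1.96 RPM in E10 AoD and 25.5 ± 4.02 RPM in E10 AoV) and Wnt5a gained dorsal polarity, falling in AoV from 85.1 ± 8.18 to 27.4 ± 3.65 RPM. Wnt2b deepened its ventral excess from 1.78 to 3.74 on the log2 scale. Among FGF genes, 8 of 20 moved towards ventral and 2 towards dorsal, against 3.96% and 6.85% of all tested genes. Fgf10, a mesenchymal ligand, deepened from a polarity of 1.09 to 3.74, at 58 ± 3.19 RPM in E10 AoV against 4.32 ± 1.04 RPM in E10 AoD, and Fgf8, an example taken from the list, lost its dorsal polarity. Of 14 tested genes of paralog groups 9 to 13, 8 moved towards ventral and 1, Hoxa13, towards dorsal, against the same 3.96% and 6.85%. Hoxd9 was level at E9.5, at 29.4 ± 2.73 and 25.1 ± 3.72 RPM in AoD and AoV, and at E10.5 stood at 14.7 ± 2.27 and 63.5 ± 3.45 RPM. Hoxd10 did so by falling in AoD from 16.3 ± 0.929 to 2.13 ± 0.696 RPM, with reads it may share with Gm20440, whose exons overlap it.

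The largest losses of ventral polarity were those of plasma protein genes. Apoa1, the main protein of high-density lipoprotein, was at 0.32, 0.806 and 0.15 RPM in E9 AoD and 25, 37.8 and 22.5 RPM in E9 AoV, and at no more than 0.333 RPM in any E10.5 library of the aorta. The groups overlapped at E10.5 (interaction -6.08, SE 0.616, limma adjusted p = 1.7e-05). Itih2, for an inhibitor that stabilises hyaluronan, was at 2.51, 5.37 and 1.28 RPM in E9 AoD, 80.7, 103 and 62.7 RPM in E9 AoV, then 0.64, 0.652 and 0.45 RPM in E10 AoD and 0.182, 0.23 and 0.326 RPM in E10 AoV. Apoa4 and the fibrinogen chain Fgg were at or under the limit of 3 reads in E10 AoV, at least 94.4-fold and 156-fold lower than in E9 AoV. All 19 tested genes of this kind, of 21 listed, were higher in AoV at E9.5, against 8.33% of all tested genes. All 19 moved towards dorsal, against 6.85% of all tested genes, 17 of them losing polarity while Apob and Cubn kept a reduced one. Genes such as Apoa4 and Fgg passed the filter of 0.5 RPM through E9 AoV alone. For these the filter itself set the direction, so the count is a description.

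Krt8, a keratin of simple epithelia, fell in AoV from 309, 323 and 320 RPM to 60.9, 59.7 and 72.1 RPM and stood at 33.2 ± 8.75 and 40.3 ± 3.76 RPM in AoD. Over all tested genes, 6.85% moved towards dorsal and 3.96% towards ventral. Of 20 tested gut endoderm genes, 10 moved towards dorsal and 0 towards ventral, 8 of them losing ventral polarity. At E10.5, 8 of the 20 were still called ventral, against 5.77% of all tested genes. Acta2, smooth muscle actin, was at 280, 259 and 265 RPM in E9 AoV and 48.1, 49.4 and 26.6 RPM in E9 AoD, but at 372, 287 and 373 RPM in E10 AoD and 317, 333 and 361 RPM in E10 AoV. AoD rose to the ventral level and the E10.5 groups overlapped (interaction -2.77, SE 0.264, limma adjusted p = 1.1e-05). Of 15 tested smooth muscle and pericyte genes, 7 moved towards dorsal and 0 towards ventral. Col1a1, the main fibrillar collagen chain, rose in AoD from 112 ± 36.9 to 312 ± 14.2 RPM and stood at 872 ± 36.3 and 453 ± 28.5 RPM in AoV. In 25 tested collagens, 14 moved towards dorsal and 1 towards ventral, and the cartilage collagen Col9a2 gained dorsal polarity (19.7 ± 2.7 RPM in E10 AoD and 3.99 ± 0.358 RPM in E10 AoV).

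Hematopoietic genes (19 tested) had a median polarity of 0.96 at E9.5 and 0.09 at E10.5, and macrophage genes (14 tested) one of 0.22 and -0.47. Gata2, needed for hematopoietic stem cells, was at 6.32, 6.45 and 3.96 RPM in E9 AoD, 11.4, 12.1 and 10.8 RPM in E9 AoV, then 22.5, 22.6 and 19.3 RPM in E10 AoD and 21.8, 20.3 and 20.7 RPM in E10 AoV. Its call is weak, since the interaction (-1.09, limma adjusted p = 0.00203) stood just past the threshold and was lost in 4 of 22 alternatives. Hhex, a homeobox factor of blood and endothelium, fell from a polarity of 1.78 to 0.18. Csf1r, the receptor that marks macrophages, went from 0.978 ± 0.397 to 15.6 ± 0.95 RPM in AoD and from 2.98 ± 0.282 to 10.4 ± 0.997 RPM in AoV, with exons that overlap Hmgxb3 on the other strand. Of 19 tested hematopoietic genes, 5 moved towards dorsal and 0 towards ventral, and of 14 macrophage genes the counts were 5 and 0. Over all tested genes the shares were 6.85% and 3.96%. Runx1, the factor required for blood emergence, was chosen after its values were seen. It had polarities of 1.32 and 0.58 and an interaction of -0.74 (limma adjusted p = 0.0141), short of the threshold on size. Of 19 endothelial markers Tek, a receptor for angiopoietins, was in the lost ventral class, and summed endothelial markers were lowest in E9 AoD.

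The largest losses of dorsal polarity included those of neural tube genes. Rgs8, a regulator of G protein signalling, was at 7.96, 8.06 and 11.3 RPM in E9 AoD, 0.889, 0.672 and 0.879 RPM in E9 AoV, then 2.49, 2.51 and 2.63 RPM in E10 AoD and 5.42, 5.55 and 3.54 RPM in E10 AoV. The AoV libraries lay above those of AoD at E10.5, by less than the threshold (interaction 4.197, SE 0.261, limma adjusted p = 4.76e-07). Msx3, a homeobox factor of the dorsal neural tube, was at 5.14, 2.26 and 12.8 RPM in E9 AoD and at most 0.232 RPM in the other libraries, and AoD fell at least 87.7-fold. Dbx1, of interneuron progenitors, was at 7.42, 4.92 and 15.1 RPM in E9 AoD and at most 0.436 RPM elsewhere in the aorta. Hes3, a repressor of neural differentiation, was at 4.79, 3.65 and 9.24 RPM there and fell at least 76.7-fold in AoD. All 3 were highest in the third E9 AoD library, which also had the highest neural marker sum, and the part of neural tissue in the result was not tested. Without that library the bounds were 48.2-fold for Msx3 and 55-fold for Hes3, and the interactions were 4.23 for Msx3, 4.06 for Dbx1 and 3.72 for Hes3, in place of 4.857, 4.496 and 4.096.

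All 27 tested neural genes were higher in AoD at E9.5 and 22 were at E10.5, against 3.45% and 4.30% of all tested genes. Msx3 and Dbx1, for example, passed the filter of 0.5 RPM through E9 AoD alone, so for these the filter set the direction. The interaction moved 18 towards ventral and 1 towards dorsal, most of them to a reduced dorsal polarity, as for Pax6, an eye and neural tube factor (log2 polarity -4.42 and then -1.60). Among tail and somite genes, Cdx1, a caudal factor, went from 6.21 ± 1.65 to 0.315 ± 0.0393 RPM in AoD and from 2.13 ± 0.49 to 0.473 ± 0.0425 RPM in AoV. The Notch modulator Lfng, active in the segmenting mesoderm, fell in AoD from 21.8 ± 6.22 to 8.58 ± 1.16 RPM. In contrast Pax1, a sclerotome factor, deepened its dorsal polarity, at 299 ± 62 RPM in E10 AoD and 4.76 ± 0.443 RPM in E10 AoV. Of 15 tested caudal progenitor genes, 5 moved towards ventral and 2 towards dorsal, against 3.96% and 6.85% of all tested genes. Of 23 tested anterior and central Hox genes (paralog groups 1 to 8), 4 moved towards ventral and 0 towards dorsal, with Hoxa6 losing dorsal polarity.

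With 10.8% called over all genes, 0 members were called among the erythroid genes (14 tested), immediate early genes (15), BMP-SMAD targets (10) and reference genes (13). Each of these lists is too short to set 0 apart from that share. The median interaction of the reference genes was 0.01, as over all tested genes (0.01). Erythroid genes summed to between 3590 and 16100 RPM in E9 AoV and so varied widely among libraries of a group.

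**Figure D5:**
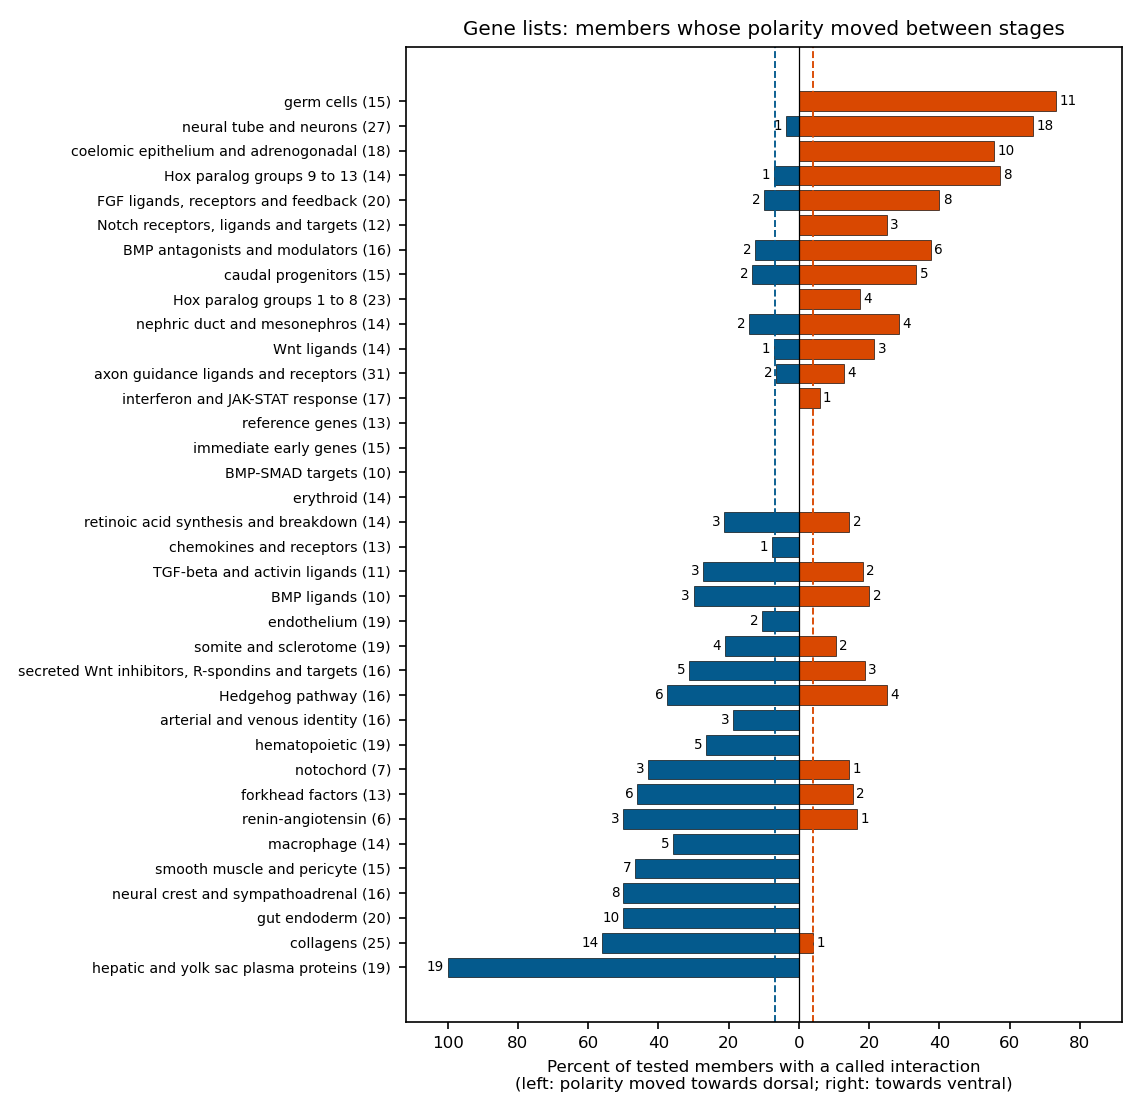
For each gene list, bars give the percent of its tested members whose interaction was called towards dorsal (left) or towards ventral (right), and dashed lines give the same over all tested genes, 6.85 and 3.96. The hepatic and yolk sac list lies wholly on the dorsal side with 19 of 19 genes, and germ cell genes (11 of 15) and neural genes (18 of 27) reach farthest on the ventral side. Members that passed the filter through a single group, such as Apoa4 and Msx3, had their direction set by it.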

How the data were processed

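RNA from pooled tissue was made into TruSeq libraries, and the 50-base reads were aligned by the authors with TopHat and Bowtie 0.12.3 to NCBIM37 (mm9) and counted over Ensembl genes in GeneProf, with reads matching several genes divided among them. The deposited RPM values, reads scaled to the library's total over genes, are rounded to 3 significant digits and not length-adjusted. The table also holds the authors' DESeq log2 fold changes and adjusted p-values, which were not used. About 66% of low values were whole multiples of 1 read (tolerance 0.05 reads), so counts were not recovered, and depths are estimates that bound counting error only.

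Genes at 0.5 RPM or more in at least 1 of 12 libraries were fitted with limma 3.58.1 (R 4.3.3) on log2(RPM + 0.1), with 1 mean per group and an intensity trend. Fold changes on this scale understate those of low genes. The limma test was tested on simulated data. Samples were grouped by the labels. Alternatives were the pseudocount, filter, scaling, fold threshold, library weights, replicate block, a block within each stage (added after seeing the data, since numbers paired AoD with AoV at E9.5), all 15 libraries and each library left out.

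Named genes were the 4 with the largest interaction in each class among those reaching 5 RPM in a group and not overlapping at the called stages, up to 4 members of each hand-written list with a called interaction and that level, and all Hedgehog and forkhead genes. Others are named as chosen after their values were seen or as examples of a list. The members and lists were chosen with earlier results of these data known. Gene positions came from GENCODE (NCBIM37) and promoters from RefSeq (GRCm38.p6). Some items are not reported here.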

Additional observations from a re-analysis of the deposited data

Results flagged for a closer look

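The effect of stage differed between AoV and AoD by the interaction test (limma) in 1989 genes, and genes with large interactions in their classes are given here as log2 values. Among genes that gained ventral polarity the interaction was 4.83 for Nr5a1, 4.59 for Lhx9, 4.26 for Dpp10 and 4.06 for Cacna1e. Among those that gained dorsal polarity it was -6.15 for Shh, -4.09 for Hhip, -3.80 for Foxa2 and -3.66 for Tbx1. Ventral polarity was lost with -6.08 for Apoa1, -5.88 for Itih2, -5.74 for Apoa4 and -5.62 for Fgg. Dorsal polarity was lost with 4.86 for Msx3, 4.496 for Dbx1, 4.197 for Rgs8 and 4.096 for Hes3. Turning from ventral to dorsal, Foxa1 had -7.40, Foxf2 -7.14, Lum -6.11 and Vtn -5.48. Turning from dorsal to ventral, AC098733.1 had 4.55, E330013P04Rik 4.52 and Emx2 4.52. The fitted values of Apoa4, Fgg, Msx3, Dbx1 and Hes3 depend on the pseudocount, since a group lay at or near the limit of 3 reads, and that of Msx3 ranged from 2.55 to 5.46 over 22 alternatives.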

How the results depend on the processing

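No called interaction of a named gene changed sign under any alternative run (those of Smo and Gli2, which were near 0 and not called, did). The 24 genes that lead the classes kept a called interaction in all of them. This does not cover their classes, which also rest on the polarity calls. Of 137 named genes, 14 lost a called interaction under at least 1 alternative. The 137 include genes such as Smo and Gli2 that had no call to lose. The number of called interactions, 1989, was 1173 with a pseudocount of 1 RPM and 4753 without the fold threshold. Gained genes (597) numbered 371 with a pseudocount of 1 RPM, 1070 without the fold threshold and 393 where polarity had to be under 0.5 at E9.5, and lost genes (770) numbered 486 and 2009 under the first 2. Reversed genes (89) numbered 25 with a pseudocount of 1 RPM, 40 with 0.5 RPM and 567 without the fold threshold. A larger pseudocount draws low values together by construction. Leaving out 1 library at a time gave 1865 to 2031 interactions, 544 to 607 gained, 691 to 849 lost and 83 to 100 reversed genes. Quantile normalization gave 37 genes turning from dorsal to ventral in place of 20. It also narrowed the excess of moves towards dorsal, with 868 interactions towards ventral and 1088 towards dorsal in place of 729 and 1260. Lost ventral genes numbered 516 and lost dorsal genes 212 under it, in place of 616 and 154. With the replicate block over all 12 libraries the counts were 2018, 603, 775 and 89. Of all 18 pairs of libraries with the same replicate number, within and across stages, 8 correlated above 0.1 (range -0.0964 to 0.461). Across stages, correlations ran from -0.0964 to 0.224 for the same number and from -0.188 to 0.168 for unlike numbers. Replicate numbers thus did not clearly pair libraries across stages. At E9.5 they paired AoD with AoV, with all 3 correlations at 0.196 to 0.461 and those of unlike numbers at -0.352 to -0.0216, and at E10.5 2 of 3 were above 0.1. A replicate block within each stage, chosen after seeing the data, gave 2049, 606, 782 and 90 and changed no call of a named gene. Depth limits values under 0.0642 to 0.0807 RPM.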

Other observations

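The E10 UGR libraries entered no test. Their mean lay nearer to E10 AoV than to E10 AoD for 56.5% of all tested genes, 66.7% of those that gained ventral and 70.5% of those that gained dorsal polarity, 76.8% of those that turned from ventral to dorsal and 95.0% of those that turned from dorsal to ventral. The E10.5 aorta levels used here also define the classes, so these shares are a description. Wt1 was at 370 ± 17.7 RPM (SD, n = 3) and Aldh1a2 at 406 ± 17.3 RPM in the UGR, above every aorta library, whereas Acta2 was at 29.8 ± 9.88 RPM and Shh at 1.13 RPM there.

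Ildr2, a membrane protein gene chosen after its values were seen, turned from dorsal to ventral at a higher level than most of its class, from 61.6 ± 19.2 to 18.3 ± 1.78 RPM in AoD and from 12.9 ± 0.404 to 49.8 ± 2.07 RPM in AoV.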
